A study of Homo sapiens with 54 samples.

Results

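The genes described here are the numbered zinc finger genes, named ZNF with a number and at most 1 further letter, whose mean level over all 54 tumors was 10 or more. Levels are TPM (transcripts per 1000000 transcripts, a measure of abundance per unit of transcript length), rescaled so that the human genes of each tumor sum to 1000000. Of the 60642 gene symbols measured, 554 carried such a name, and 237 of these reached the threshold and are the members. Members were thus chosen by their mean level over the same tumors that are compared below, and 40 members had a PRE-CX mean under 10 and entered through other groups. At the threshold, ZNF273, ZNF420 and ZNF616 were just inside with means of 10.07, 10.02 and 10.02, and ZNF584, ZNF704 and ZNF318 just outside with 9.96, 9.95 and 9.95. All 237 members passed the filter for testing (1 or more rescaled TPM in at least 8 tumors), as did 17593 genes in all, and of the other numbered zinc finger symbols 11 were listed at 0 in every tumor.

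The tumors were LNCaP xenografts, grown subcutaneously in male NOD-SCID hosts without adaptive immunity from 1 clone (FGC) of an androgen-dependent human prostate cancer line. PRE-CX tumors (n = 9) came from mice with mock surgery at a tumor size of about 200 cubic mm. They were taken later, when they reached the size limit. All other mice were castrated at about 200 cubic mm. POST-CX tumors (n = 8) were taken 1 week after castration, at the first low of serum prostate-specific antigen (PSA). CRPC tumors (n = 10) were taken when PSA had returned to its level before castration or the tumor had reached the size limit. ENZS (n = 12) and ENZR (n = 15) tumors came from castrated mice given 10 mg/kg enzalutamide, an androgen receptor antagonist. It was given by mouth on 5 days a week from the time PSA rose. ENZS tumors were taken at the second PSA low, and ENZR tumors after relapse on the drug, by PSA or the size limit. The drug groups thus carry castration and drug together. Groups also differ in the stage of growth at which tumors were taken. Mice were 5 to 6 weeks old when sourced, and their age at harvest is not given in the sources used here.

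C2H2 zinc finger proteins read DNA with strings of short repeats that each fold around a zinc ion. Many of them carry a KRAB domain, which recruits the corepressor TRIM28 and through it the histone methyltransferase SETDB1 and HP1 proteins, and a large share of this class is known for silencing transposable elements. The KRAB class has expanded by tandem duplication, above all on chromosome 19, so that neighboring genes are often close copies. Other numbered zinc finger genes encode unrelated proteins: activators of transcription, RNA-binding proteins, ribosome assembly and quality control factors.

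The 237 members followed that pattern. In RefSeq (GRCh38.p14) 236 matched by symbol, 229 were protein-coding and 7 were transcribed pseudogenes. Of those with a position, 111 lay on chromosome 19, which is 46.8% of all members, against 6.86% of all tested genes with a position. Chromosome 7 followed with 20. In the longest open reading frame of their GENCODE v44 transcripts, found for 229 members, the number of C2H2 fingers ranged from 0 to 31 with a median of 10, and 140 held a KRAB-like stretch. These are pattern matches in predicted frames, some of which are partial, so they are counts of letters and not of tested domains.

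Promoters are shown for the neighboring risers ZNF680, ZNF735 and ZNF736 and for ZNF511 and ZNF587B, which fell, from 250 bases before to 50 after the start in RefSeq (GRCh38.p14). Coordinates are chr7:64563022-64563321 (minus strand) for ZNF680, chr7:64206953-64207252 (plus) for ZNF735, chr7:64313711-64314010 (plus) for ZNF736, chr10:133308664-133308963 (plus) for ZNF511 and chr19:57830049-57830348 (plus) for ZNF587B. Capitals mark CCGGAAG or its reverse complement, a longer form of the GGAA core that ETS factors read.
ZNF680: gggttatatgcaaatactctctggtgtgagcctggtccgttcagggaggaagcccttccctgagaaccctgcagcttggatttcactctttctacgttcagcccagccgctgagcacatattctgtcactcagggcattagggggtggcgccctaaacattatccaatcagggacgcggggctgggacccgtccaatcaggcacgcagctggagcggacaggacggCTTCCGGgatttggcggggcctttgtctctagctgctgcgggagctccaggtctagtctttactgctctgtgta
ZNF735: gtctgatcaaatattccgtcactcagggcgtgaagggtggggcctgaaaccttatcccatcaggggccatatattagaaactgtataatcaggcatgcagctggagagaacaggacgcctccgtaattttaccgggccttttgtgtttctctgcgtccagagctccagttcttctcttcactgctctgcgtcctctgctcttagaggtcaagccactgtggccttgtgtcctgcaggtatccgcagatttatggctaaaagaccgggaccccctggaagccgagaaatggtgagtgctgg
ZNF736: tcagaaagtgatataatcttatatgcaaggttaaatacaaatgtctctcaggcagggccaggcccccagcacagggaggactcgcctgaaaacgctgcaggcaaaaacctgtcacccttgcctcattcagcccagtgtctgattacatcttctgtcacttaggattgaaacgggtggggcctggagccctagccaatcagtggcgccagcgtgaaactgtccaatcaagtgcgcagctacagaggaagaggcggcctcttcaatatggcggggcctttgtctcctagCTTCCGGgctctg
ZNF511: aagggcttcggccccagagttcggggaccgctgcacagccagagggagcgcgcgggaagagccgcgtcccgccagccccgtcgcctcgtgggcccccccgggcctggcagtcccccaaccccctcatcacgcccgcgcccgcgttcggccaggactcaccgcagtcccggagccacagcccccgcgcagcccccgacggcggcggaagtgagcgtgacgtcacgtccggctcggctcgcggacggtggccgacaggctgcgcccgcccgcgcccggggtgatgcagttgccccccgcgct
ZNF587B: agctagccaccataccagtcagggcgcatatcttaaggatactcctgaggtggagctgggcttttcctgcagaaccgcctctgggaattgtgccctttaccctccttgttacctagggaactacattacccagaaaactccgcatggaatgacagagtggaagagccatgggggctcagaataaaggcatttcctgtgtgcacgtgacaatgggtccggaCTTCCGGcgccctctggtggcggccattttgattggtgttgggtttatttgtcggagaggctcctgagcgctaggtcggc

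The marked letters were in the promoters of ZNF680 and ZNF736, which rose, and of ZNF587B, which fell, and in neither ZNF735 nor ZNF511. The shorter GGAA was not marked, and it stands in the sequences of both ZNF735 and ZNF511. Searched on both strands, CCGGAAG was in 42.7% of the 199 members with a promoter sequence, in 18.99% of the 10972 tested genes with one and in 10.7% of all 27305 promoters. The CCAAT box (CCAAT, both strands) was in 49.2% of the members' promoters, 37.2% of those of tested genes and 35.7% of all. The GC box (GGGCGG, both strands) was in 63.3%, 68.7% and 44.6%. Members with and without CCGGAAG had medians of 0.30 (n = 85) and 0.37 (n = 114) for the log2 difference between ENZS and PRE-CX, and this difference was not tested.

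Several features of the tumors differed between groups. Human genes held 12.1% to 97.5% of the deposited TPM of a tumor, and POST-CX mouse 91 (27.9%) and ENZR mouse 87 (12.1%) stood apart. Without the 4 tumors of lowest human share, ENZS and ENZR had 164 and 151 members called against PRE-CX in place of 165 and 148. The summed level of 10 proliferation markers was 557 to 965 rescaled TPM in PRE-CX, 226 to 772 in POST-CX, 356 to 959 in CRPC, 121 to 326 in ENZS and 139 to 695 in ENZR, and all 10 fell in ENZS and in ENZR against PRE-CX. Of 10 stroma, vessel and blood markers, 5 passed the filter, of which 3 rose and 1, VWF, fell in ENZS and in ENZR; the summed level over all 10 was 7.40 to 19.02 in PRE-CX, 14.7 to 140 in ENZS and 11.4 to 83.9 in ENZR, with HBB at 0 in 44 tumors, PECAM1 in 32 and PTPRC in 28. These markers are human genes, while the host cells of a xenograft are mouse cells. The source of the reads counted for human stroma, vessel and blood genes was not tested. The 10 luminal LNCaP markers were above 0 in every tumor. Mitochondrial genes held 9.19% to 20.2% of the human TPM in PRE-CX and 13.03% to 26.2% in ENZS. The part of these in the results on the members was not tested, and in bulk tumors fewer cells of a type and less RNA per cell cannot be told apart.

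The overall level of the members was followed across the groups. The mean of log2(rescaled TPM + 1) over the 237 members, called the index below, ranged in PRE-CX from 3.89 to 4.40 with a median of 4.14. In POST-CX it ranged from 4.13 to 4.55 with a median of 4.41, and in CRPC from 3.93 to 4.44 with a median of 4.22. Under enzalutamide it ranged from 4.24 to 4.78 in ENZS (median 4.46) and from 4.13 to 4.71 in ENZR (median 4.40). The group means were 4.14 ± 0.169 in PRE-CX, 4.37 ± 0.138 in POST-CX, 4.22 ± 0.158 in CRPC, 4.49 ± 0.160 in ENZS and 4.43 ± 0.188 in ENZR (SD). The ranges of every group overlapped that of PRE-CX. In summed level, the members held 5090 ± 547 rescaled TPM in PRE-CX and 6363 ± 734 in ENZS (SD, n = 9 and 12). The index is a description over a selected list and carries no test.

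**Figure D1:**
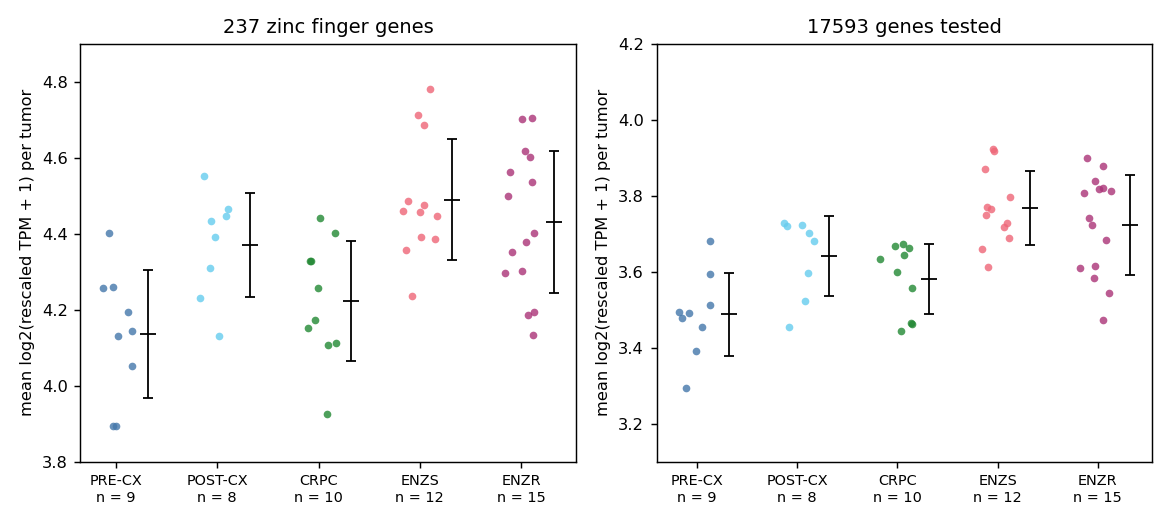
Mean log2(rescaled TPM + 1) per tumor over the 237 zinc finger genes (left) and over all 17593 genes tested (right), by group. Points are tumors and bars are the mean ± SD. Both panels rise from PRE-CX to ENZS: the means go from 4.14 to 4.49 on the left and from 3.49 to 3.77 on the right.

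Genes in general moved the same way on the rescaled levels, which sets the scale for the members' shift. Every tumor sums to the same total on that scale, so these are shifts in share and not in amount of RNA. The same mean over the 17593 genes tested was 3.49 ± 0.110 in PRE-CX, 3.64 ± 0.105 in POST-CX, 3.58 ± 0.0925 in CRPC, 3.77 ± 0.0975 in ENZS and 3.72 ± 0.132 in ENZR (SD). The members' index lay above it by 0.649 ± 0.0856 in PRE-CX, 0.729 ± 0.0431 in POST-CX, 0.642 ± 0.0877 in CRPC, 0.723 ± 0.0864 in ENZS and 0.708 ± 0.0912 in ENZR (SD). Each gap differed from that of PRE-CX by less than the SD between PRE-CX tumors. That SD is the spread of single tumors and not the precision of a group mean, and the differences in gap were not tested. Between PRE-CX and ENZS the members' mean went up by 0.35 and the mean of all tested genes by 0.28 on the log2 scale, so the members moved largely with genes in general.

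The first question was how members differed between PRE-CX tumors and tumors responding to enzalutamide in castrated mice. Between ENZS and PRE-CX, 145 of the 237 members (61.2%) rose and 20 (8.44%) fell at a limma p adjusted by Benjamini and Hochberg (BH) under 0.05, with a median log2 difference of 0.36. Over all genes tested, 47.5% rose and 13.6% fell, with a median of 0.29. Genes of any kind with a mean of 10 or more had 46.6% higher, 16.6% lower and a median of 0.24. The 188 members at 10 or more in every group, which leaves out those that entered through the drug groups alone, had 108 higher, 20 lower and a median of 0.33. The middle of the members' distribution was narrow, with the tenth percentile at -0.17 and the ninetieth at 0.77. Few members moved far: 12 rose and 1 fell by at least 1 on the log2 scale, where 10.5% and 3.09% of all genes did. Of the 188 members at 10 or more in every group only 3 rose that far, so most of the large rises were in members with a mean under 10 in some group, which reached the threshold through the groups where they were high. The ENZS range lay wholly above that of PRE-CX for 24 members (10.1%; 9.19% of all genes) and wholly below it for 2, ZNF511 and ZNF232 (0.844%; 2.94% of all genes).

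Tumors that had relapsed on the drug were compared in the same way. Against PRE-CX, ENZR had 132 members higher (55.7%) and 16 lower (6.75%), with a median of 0.32, while 44.6% of all genes tested were higher and 13.8% lower, with a median of 0.25. By at least 1 on the log2 scale, 8 members rose and 0 fell, against 7.38% and 2.83% of all genes, and among the 188 members at 10 or more in every group 2 rose that far. Both comparisons share the PRE-CX tumors and are not independent of each other. Ranges did not overlap for 7 members above PRE-CX (ZNF83, ZNF512, ZNF415, ZNF25, ZNF462, ZNF204P and ZNF177; 1.92% of all genes) and for 1 below, ZNF511 (0.784% of all genes).

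**Figure D2:**
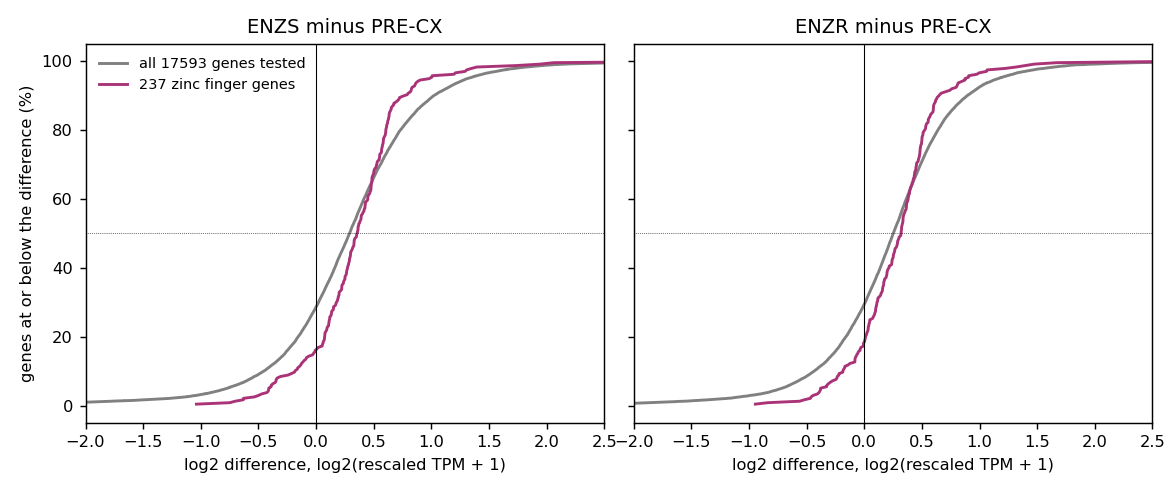
Cumulative share of genes (%) against the log2 difference from PRE-CX, for ENZS (left) and ENZR (right), over the 237 zinc finger genes and over all 17593 genes tested. The curve of the zinc finger genes is steeper and lies to the right of all genes at its middle (medians 0.36 against 0.29 in ENZS and 0.32 against 0.25 in ENZR); ZNF735 lies beyond the right edge.

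The number of calls depended on the scaling. With TPM as deposited, ENZS had 57 members higher and 6 lower (30.3% and 8.18% of all genes) and ENZR 19 higher and 11 lower (17.6% and 11.5% of all genes). For the rises these are 24.1% and 8.02% of the members, below the share of all genes in both groups, while of genes with a mean of 10 or more 23.4% and 9.97% rose. With each tumor centred on its own median gene, ENZS had 69 higher and 45 lower (26.6% and 28.3% of all genes) and ENZR 59 higher and 51 lower (24.2% and 27.7% of all genes). The median over members stayed above 0 in both groups under every scaling tried, at 0.32 and 0.10 as deposited and at 0.06 in each when centred. Relative to the typical gene, the members as a set were thus near 0, and single genes went both ways.

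ENZS and CRPC tumors both came from castrated mice and differed in the drug, but also in stage. CRPC tumors were taken at relapse or the size limit and ENZS tumors at a PSA low. The part of the drug alone was not tested. Between ENZS and CRPC, 112 members rose (47.3%) and 4 fell (1.69%), with a median of 0.28. Of all genes 31.4% rose and 6.41% fell, with a median of 0.21. As deposited 3 members rose and 0 fell (6.21% and 2.71% of all genes). The members' share of rises was thus below that of all genes. When centred 29 members rose and 17 fell (11.2% and 13.9% of all genes). Castrated tumors without the drug were compared with PRE-CX. Between POST-CX and PRE-CX 77 members rose (32.5%) and 7 fell (2.95%), with a median of 0.24, against 20.6% and 5.62% of all genes and a median of 0.16; the median turned to -0.02 as deposited, with 1 higher and 2 lower (1.66% and 2.67% of all genes), and centring left 31 higher and 20 lower (10.2% and 14.4% of all genes). Between CRPC and PRE-CX 29 rose (12.2%) and 13 fell (5.49%), against 14.2% and 5.87% of all genes, with a median of 0.08 for members and for all genes, which turned to -0.01 for members when centred. Here 4 rose and 1 fell as deposited (5.55% and 1.87% of all genes), and 22 rose and 30 fell when centred (11.6% and 11% of all genes).

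The steps between castration and relapse gave no called member. Between CRPC and POST-CX the limma test called 0 of 237 members higher and 0 lower (0.00568% and 0.0568% of all genes), while 58 had an unadjusted p under 0.05, 5 of them higher; the median of -0.16 turned to 0.125 as deposited. Between ENZR and ENZS it called 0 and 0 (0.0% and 0.0% of all genes), with 20 members at an unadjusted p under 0.05, 4 of them higher, and a median of -0.06. The median coefficient of variation of a member between tumors of a group was 15.4% in POST-CX and 21.2% in ENZR, close to the 15.6% and 22.7% of all genes at a mean of 10 or more.

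The comparisons of POST-CX with PRE-CX and of ENZS with CRPC shared no tumors, so they can be set against each other. Over the 237 members, the log2 differences of POST-CX minus PRE-CX and of ENZS minus CRPC had a Pearson r of 0.513 and a Spearman rho of 0.414. Over all 17593 genes tested these were 0.431 and 0.477. Genes are not independent replicates, and the points share the library preparation, so the values are descriptions. Of the 77 members that rose with castration 48 (62.3%) also rose between CRPC and ENZS, and these were 42.9% of the 112 that did. For all genes the shares were 53.1% and 34.9%. The correlations and the overlap were taken on the rescaled levels alone, and the calls depended on that scaling. As deposited 1 member rose with castration and 3 rose between CRPC and ENZS, and when centred 31 and 29 did.

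**Figure D3:**
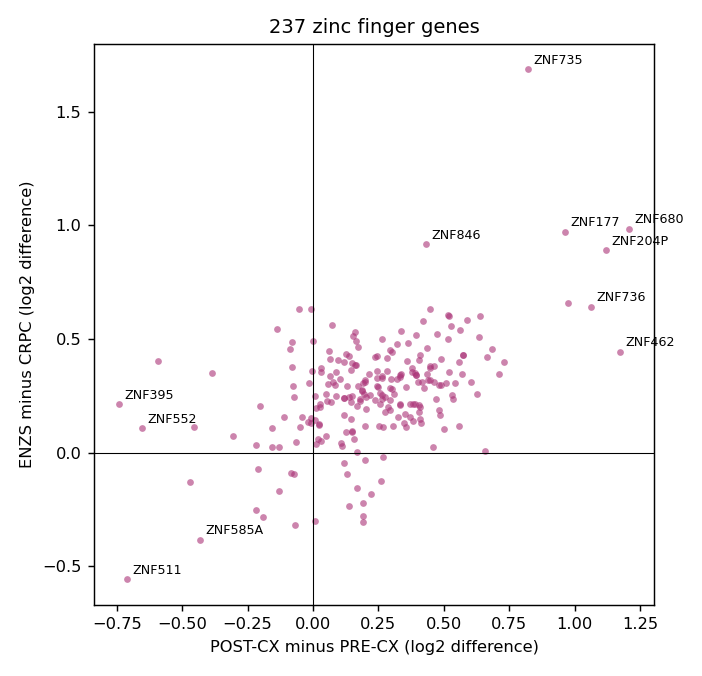
Log2 difference, on the rescaled levels, of each of the 237 zinc finger genes between POST-CX and PRE-CX (horizontal) and between ENZS and CRPC (vertical). The 2 comparisons share no tumors. Most points lie above 0 on both axes; ZNF680, ZNF204P and ZNF177 are at the upper right and ZNF511 at the lower left (r = 0.513).

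Several members stood far outside the common shift. ZNF735 (chr7:64207203-64220290), a KRAB-like gene with 6 finger matches, was listed at 0 in 6 of 9 PRE-CX tumors and reached at most 0.107 rescaled TPM in the others. ZNF735 thus met the rule for members only through the other groups, a choice that favors a rise over PRE-CX. Its lowest, median and highest levels were 0, 0.371 and 13.8 in POST-CX, 0, 2.69 and 28.7 in CRPC, 1.03, 12.9 and 196 in ENZS, and 0, 3.38 and 113 in ENZR. All 12 ENZS tumors and 14 of 15 ENZR tumors were above the PRE-CX range, but the spread between tumors was the widest of all members in each group. The log2 difference from PRE-CX was 3.50 (SE 0.746, limma BH-adjusted p 7.57e-05) in ENZS and 2.84 (SE 0.71, limma BH-adjusted p 0.000688) in ENZR. On log2(TPM + 1) these understate the change of a gene near 0, and with a pseudocount of 0.1 they were 6.39 and 5.29. The differences in POST-CX of 0.82 (limma BH-adjusted p 0.475) and in CRPC of 1.81 (limma BH-adjusted p 0.0913) did not pass.

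ZNF680 (chr7:64499069-64563071), its neighbor, was among the 15 members with a mean of 50 or more. Levels in rescaled TPM were 19.5 to 48.1 in PRE-CX (median 36.4), 50.1 to 112 in POST-CX (median 87.6), 37.8 to 181 in CRPC (median 85.9), 80.1 to 428 in ENZS (median 133) and 21.2 to 248 in ENZR (median 105). Every POST-CX and every ENZS tumor was above the PRE-CX range, as were 13 of 15 ENZR tumors. ZNF680 rose by 1.21 (SE 0.34) with castration, 1.08 (SE 0.32) in CRPC, 2.06 (SE 0.31) in ENZS and 1.40 (SE 0.30) in ENZR against PRE-CX, with limma BH-adjusted p of 0.00714, 0.013, 1.6e-07 and 8.16e-05. It also rose by 0.98 between CRPC and ENZS (SE 0.30, limma BH-adjusted p 0.00896). As deposited the rises of ZNF680 in ENZS and ENZR kept their call and the other 3 lost it. ZNF736 (chr7:64313961-64356634), the gene between these, had 9.72 to 20.4 rescaled TPM in PRE-CX, 21.7 to 92.0 in ENZS and 13.5 to 72.4 in ENZR. It rose by 1.35 (SE 0.25) and 1.22 (SE 0.23) in the drug groups, with limma BH-adjusted p of 6.35e-06 and 1.99e-05, and by 1.06 in POST-CX (limma BH-adjusted p 0.00291), the last not as deposited.

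ZNF204P (chr6:27357823-27375374), a transcribed pseudogene, ZNF177 (chr19:9363013-9382617), a KRAB-like gene, and ZNF462 (chr9:106860158-107013634), a long protein known to work with the G9a and GLP histone methyltransferases, rose from low levels. ZNF204P had 2.60, 3.35 and 6.18 rescaled TPM in PRE-CX (lowest, median, highest), 5.49, 18.2 and 28.1 in ENZS and 7.64, 16.3 and 23.0 in ENZR, and rose by 1.95 (SE 0.23, limma BH-adjusted p 9.89e-10) and 1.68 (SE 0.22, limma BH-adjusted p 1.9e-08). ZNF177 had 1.84, 4.94 and 7.44 in PRE-CX, 9.80, 16.2 and 24.1 in ENZS and 8.41, 13.6 and 21.0 in ENZR, so that neither drug group overlapped PRE-CX. It rose by 1.74 (SE 0.19, limma BH-adjusted p 1.87e-10) and 1.47 (SE 0.18, limma BH-adjusted p 4.91e-09), and by 0.97 between CRPC and ENZS (SE 0.19, limma BH-adjusted p 0.000128). For ZNF462 the values were 2.9975, 5.60 and 8.32 in PRE-CX, 10.5, 13.9 and 17.2 in POST-CX, 11.6, 14.7 and 23.7 in ENZS and 8.79, 15.0 and 23.6 in ENZR. All tumors of POST-CX, ENZS and ENZR lay above the PRE-CX range of ZNF462, with log2 differences of 1.17 (SE 0.19), 1.40 (SE 0.17) and 1.32 (SE 0.17) and limma BH-adjusted p of 1.12e-05, 2.76e-09 and 5.79e-09. ZNF204P and ZNF462 also rose in POST-CX and CRPC, by 1.12 and 1.05 for ZNF204P and by 0.95 in CRPC for ZNF462, of which only the POST-CX rise of ZNF204P was lost as deposited. All 3 genes kept a limma BH-adjusted p under 0.05 in ENZS and ENZR as deposited and when centred. All 3 were under 10 rescaled TPM in every PRE-CX tumor and met the rule for members only through the other groups. That choice favors genes that rise over PRE-CX.

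ZNF846 (chr19:9748619-9786160) was among the 3 largest rises between CRPC and ENZS, at 0.92 (SE 0.18, limma BH-adjusted p 0.000192). Its levels were 3.05 to 12.8 rescaled TPM in CRPC and 9.29 to 23.2 in ENZS. Of the ENZS tumors, 11 of 12 were above the CRPC range. The mean of ZNF846 over all tumors was 11.72 rescaled TPM, near the threshold for members. That mean includes the ENZS tumors, so for a gene this near the threshold the choice of members favors a rise to ENZS. The p-values of ZNF846 carry that limit. Against PRE-CX, ZNF846 did not pass in POST-CX (0.43, limma BH-adjusted p 0.116) or CRPC (0.38, limma BH-adjusted p 0.173) and rose by 1.29 in ENZS (limma BH-adjusted p 9.13e-08).

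ZNF511 (chr10:133308914-133313161) fell furthest of all members in both drug groups. Its levels were 85.4, 113 and 125 rescaled TPM in PRE-CX (lowest, median, highest), 45.5, 67.0 and 71.3 in POST-CX, 55.0, 70.7 and 112 in CRPC, 39.7, 50.4 and 58.2 in ENZS and 41.8, 52.6 and 73.3 in ENZR. No tumor of POST-CX, ENZS or ENZR reached the PRE-CX range. ZNF511 fell by 0.71 (SE 0.11) in POST-CX, 0.48 (SE 0.11) in CRPC, 1.04 (SE 0.10) in ENZS and 0.95 (SE 0.10) in ENZR on the log2 scale, with limma BH-adjusted p of 7.83e-06, 0.000977, 1.19e-11 and 4.72e-11. It fell by a further 0.56 between CRPC and ENZS (SE 0.10, limma BH-adjusted p 5.09e-05), which did not pass as deposited (limma BH-adjusted p 0.086).

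ZNF552 (chr19:57807082-57814913), a KRAB-like gene, was lower after castration in every group. It had 22.4 to 45.0 rescaled TPM in PRE-CX, 16.2 to 27.8 in POST-CX, 14.2 to 22.0 in CRPC, 13.6 to 27.4 in ENZS and 14.4 to 30.0 in ENZR. All 10 CRPC tumors lay below the PRE-CX range, as did 4 of 8, 9 of 12 and 14 of 15 tumors of POST-CX, ENZS and ENZR. The log2 differences of ZNF552 were -0.65 (SE 0.13, limma BH-adjusted p 0.00017), -0.85 (SE 0.12, limma BH-adjusted p 6.42e-07), -0.75 (SE 0.12, limma BH-adjusted p 3.28e-07) and -0.84 (SE 0.11, limma BH-adjusted p 1.84e-08) in POST-CX, CRPC, ENZS and ENZR. Between CRPC and ENZS its difference of 0.11 did not pass (limma BH-adjusted p 0.462).

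**Figure D4:**
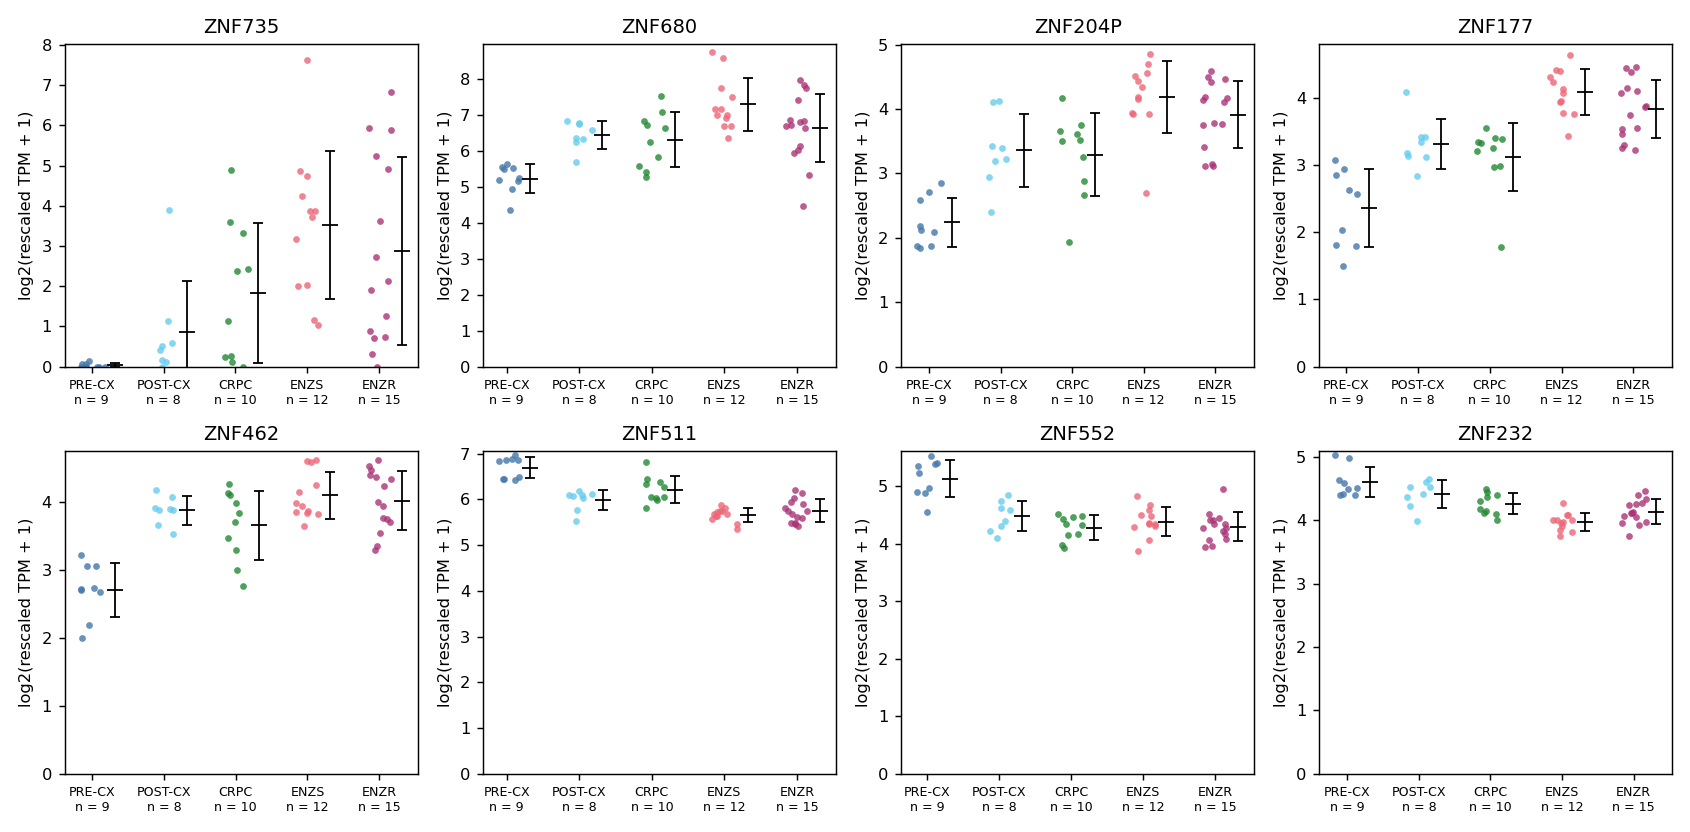
log2(rescaled TPM + 1) per tumor of 8 zinc finger genes that left the common shift, by group, with the mean ± SD as bars. ZNF735, ZNF680, ZNF204P, ZNF177 and ZNF462 are higher in ENZS and ENZR than in PRE-CX, and ZNF511, ZNF552 and ZNF232 are lower; ZNF735 spreads from 1.03 to 196 rescaled TPM within ENZS.

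The other large falls were in genes of moderate level. ZNF232 (chr17:5105734-5123116) had 19.99 to 31.6 rescaled TPM in PRE-CX, 12.5 to 18.4 in ENZS and 12.5 to 21.0 in ENZR, and fell by 0.63 (SE 0.09, limma BH-adjusted p 4.23e-08) and 0.47 (SE 0.08, limma BH-adjusted p 7.82e-06). ZNF121 (chr19:9560329-9584504) had 17.2 to 34.4, 8.58 to 19.4 and 8.61 to 33.4, and fell by 0.70 in ENZS (SE 0.15, limma BH-adjusted p 6.13e-05) and 0.39 in ENZR (limma BH-adjusted p 0.0171). ZNF585A (chr19:37145540-37172695) fell by 0.53 (SE 0.13, limma BH-adjusted p 0.000325) and 0.46 (SE 0.12, limma BH-adjusted p 0.00117), and by 0.38 between CRPC and ENZS (SE 0.12, limma BH-adjusted p 0.0127), which was lost as deposited. ZNF85 (chr19:20923251-20950697), a KRAB-like gene with 15 finger matches, fell by 0.56 in ENZR (SE 0.11, limma BH-adjusted p 2.83e-05) and 0.41 in ENZS (limma BH-adjusted p 0.00196). ZNF587B (chr19:57830299-57846238) had 9.63 to 32.4 rescaled TPM in PRE-CX, 7.92 to 15.0 in ENZS and 8.09 to 18.2 in ENZR, and fell by 0.63 (SE 0.14, limma BH-adjusted p 9.84e-05) and 0.52 (SE 0.13, limma BH-adjusted p 0.000717). ZNF585A and ZNF587B have near-identical copies in ZNF585B and ZNF587, between which the authors' quantification could split reads, so their single values are uncertain; of these copies ZNF585B was among the members whose ENZS range lay above PRE-CX. Across the 20 members that fell in ENZS the differences ran from -1.04 to -0.24, and across the 16 in ENZR from -0.95 to -0.30.

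The remaining named falls came from the castration and relapse comparisons. ZNF395, known as a gene induced by hypoxia, had 16.5 to 57.3 rescaled TPM in PRE-CX and 10.8 to 22.5 in POST-CX and fell by 0.74 (SE 0.23, limma BH-adjusted p 0.0141), while ENZS at 12.2 to 46.5 differed by -0.06 (limma BH-adjusted p 0.808). That call was lost as deposited (limma BH-adjusted p 0.082). ZNF532 (chr18:58862924-58986480), of the Z3 chromatin complex, and ZNF589 (chr3:48241104-48270990), a KRAB-like gene, fell in CRPC by 0.74 (SE 0.16, limma BH-adjusted p 0.000463) and 0.54 (SE 0.13, limma BH-adjusted p 0.00208), and neither call was kept as deposited. Both also fell in ENZS, ZNF532 by 0.39 and ZNF589 by 0.43, and in ENZR, by 0.44 and 0.41. ZNF726 (chr19:23914886-23944714) had 15.6 to 23.0 rescaled TPM in CRPC and 11.9 to 22.3 in ENZS, and fell by 0.31 (SE 0.12, limma BH-adjusted p 0.0358), a call lost as deposited and without the filter, and its ENZS and PRE-CX levels differed by only -0.02 (limma BH-adjusted p 0.889).

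Members near ZNF680 and near ZNF552 were looked at by position; both stretches were chosen after their values were seen and carry no test. Within 1000000 bases of ZNF680 on chromosome 7 there were 7 members. Of these 6 rose and 0 fell in ENZS and 5 rose and 0 fell in ENZR. Over all genes tested 47.5% rose and 13.6% fell in ENZS, and 44.6% and 13.8% in ENZR. Beside ZNF735, ZNF736 and ZNF680, ZNF107 rose by 0.50 and 0.53 and ZNF138 by 0.57 and 0.45 in ENZS and ENZR, ZNF92 rose by 0.33 in ENZS, and ZNF273 was at 0.02 and -0.08. The differences were thus largest at one end of the stretch. Within the same distance of ZNF552 on chromosome 19 there were 17 members. Of these 10 rose and 4 fell in ENZS and 9 rose and 4 fell in ENZR. The share of rises was near that of all members, 61.2% in ENZS and 55.7% in ENZR. The 4 that fell are consecutive members: ZNF586, ZNF552, ZNF587B and ZNF587, with -0.39, -0.75, -0.63 and -0.47 in ENZS and -0.39, -0.84, -0.52 and -0.30 in ENZR. Their neighbors on either side went up, with ZNF776 at 0.61 and 0.42 and ZNF814 at 0.49 and 0.36. Close copies in such clusters can exchange reads, and the part of that in these values was not tested.

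**Figure D5:**
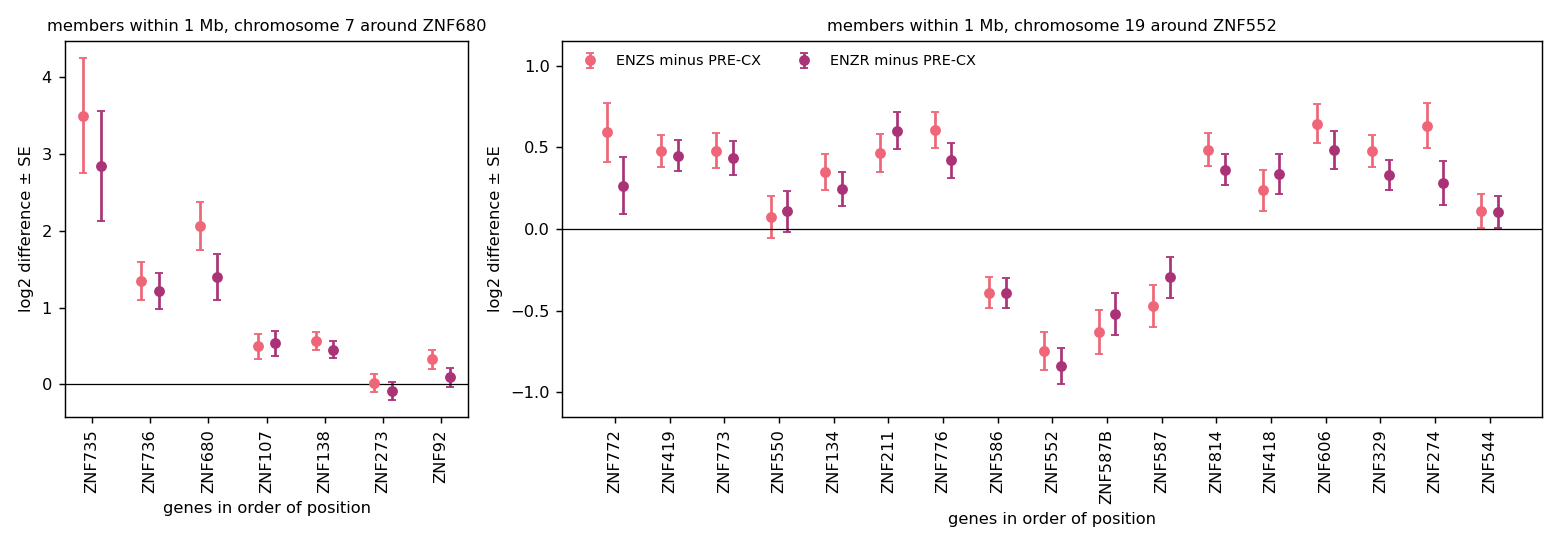
Log2 difference from PRE-CX (± SE of the limma fit) in ENZS and ENZR for the members within 1 Mb of ZNF680 on chromosome 7 (left, 7 genes) and of ZNF552 on chromosome 19 (right, 17 genes), in order of position. On the left ZNF735 stands highest at 3.50 in ENZS; on the right ZNF586, ZNF552, ZNF587B and ZNF587 lie below 0 between neighbors above it.

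Medians were also taken by gene features. KRAB-like members had a median of 0.37 in ENZS and 0.34 in ENZR (87 and 82 of 140 higher, 11 and 9 lower). Members without the stretch had 0.30 and 0.25 (52 and 44 of 89 higher, 9 and 7 lower). Of all genes tested 47.5% rose and 13.6% fell in ENZS, and 44.6% and 13.8% in ENZR, with medians of 0.29 and 0.25. The class values are on the rescaled levels alone, and centring took the median of all members to 0.06 in both groups. The 36 members with 16 or more finger matches had medians of 0.41 and 0.40, and the 71 with 6 to 10 had 0.27 and 0.22. Chromosome 19 members had 0.35 and 0.28 where all 983 tested genes of that chromosome had 0.17 and 0.13, and chromosome 7 members had 0.53 and 0.50 where its 704 tested genes had 0.31 and 0.27. In ENZS 57.7% of chromosome 19 members rose (39.6% of all its genes), and 16 of the 20 on chromosome 7 (51% of all its genes). The 7 transcribed pseudogenes had medians of 0.58 and 0.50. By mean level, the value that the rule itself used, members with a mean of 10 to 20 had a median of 0.36 in ENZS (n = 141), those of 20 to 50 also 0.36 (n = 81) and those of 50 or more 0.29 (n = 15). None of these differences between classes was tested.

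The most abundant members went separate ways. ZNF706, with the highest mean (171 rescaled TPM), had 97.2 to 220 in PRE-CX and 179 to 287 in ENZS and rose by 0.61 (SE 0.11, limma BH-adjusted p 3.67e-06) in ENZS and 0.48 (limma BH-adjusted p 0.00011) in ENZR, the latter not as deposited. ZNF207 (chr17:32350157-32381885), or BuGZ, which brings BUB3 to kinetochores, had a mean of 166 and fell by 0.24 in ENZS (SE 0.09, limma BH-adjusted p 0.0134), from 152 to 218 in PRE-CX to 110 to 178. In ENZR its difference of -0.18 did not pass (limma BH-adjusted p 0.059). ZNF664 (chr12:123973215-124015427) had a mean of 151 and did not pass in ENZS (0.14, limma BH-adjusted p 0.283) or ENZR (0.01, limma BH-adjusted p 0.965).

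Members with known roles were read from short hand-written lists, whose counts are descriptions of single genes: 61.2% of all members rose and 8.44% fell in ENZS, and 55.7% and 6.75% in ENZR. Over all genes tested 47.5% rose and 13.6% fell in ENZS, and 44.6% and 13.8% in ENZR. Of 4 listed under ribosome and translation, 2 rose and 2 fell in ENZS. The list includes ZNF346, 1 of the 2 that rose, which is described here only as an RNA-binding protein. ZNF598, the ubiquitin ligase that detects collided ribosomes, fell by 0.34 in ENZS (limma BH-adjusted p 0.0322) and 0.32 in ENZR (limma BH-adjusted p 0.032), and ZNF593, which acts in assembly of the large subunit, fell by 0.37 in ENZS (limma BH-adjusted p 0.00407). ZNF622, a maturation factor of the same subunit, rose by 0.29 in ENZS (limma BH-adjusted p 0.0023), which was also the median shift of all genes and fell just under 0 when centred, and ZNF346, which binds double-stranded RNA, by 0.52 and 0.51. Of 4 in spindle and splicing, the splicing proteins ZNF638 and ZNF326 rose in ENZS, by 0.67 (limma BH-adjusted p 1.94e-05) and 0.40 (limma BH-adjusted p 0.00587), and in ENZR by 0.62 and 0.34, and ZNF207 was the 1 that fell. ZNF830 did not pass in either.

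Of the 11 members among other transcription factors, 6 rose and 0 fell in ENZS (47.5% and 13.6% of all genes). In ENZR 6 rose and 1 fell (44.6% and 13.8% of all genes), and the shares of rises were near those of all members. ZNF219 rose most, by 1.01 (SE 0.14, limma BH-adjusted p 1.97e-08) and 0.87 (SE 0.13, limma BH-adjusted p 2.47e-07). Its levels were 5.10 to 8.11 rescaled TPM in PRE-CX, 6.73 to 18.6 in ENZS and 7.63 to 17.4 in ENZR. With every PRE-CX tumor under 10, ZNF219 met the rule for members only through the other groups. ZNF703, known as an oncogene of luminal breast cancer, rose by 0.83 (SE 0.25, limma BH-adjusted p 0.00305) and 0.90 (SE 0.23, limma BH-adjusted p 0.00098). ZNF410, known for keeping CHD4 expressed, rose by 0.55 (SE 0.09, limma BH-adjusted p 1.54e-06) and 0.42 (limma BH-adjusted p 6.68e-05), with 11 of 12 ENZS tumors above the PRE-CX range. ZNF263, ZNF148 and ZNF76 rose in ENZS by 0.53, 0.46 and 0.30. ZNF143, an activator at many promoters, was the 1 that fell in ENZR, by 0.31 (limma BH-adjusted p 0.039), and ZNF217, ZNF384, ZNF395 and ZNF652 did not pass in either drug group.

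Of 6 members in chromatin complexes, 4 rose and 1 fell in ENZS and in ENZR alike (47.5% and 13.6% of all genes in ENZS, 44.6% and 13.8% in ENZR). ZNF592 and ZNF687, partners in the Z3 complex, rose by 0.39 (limma BH-adjusted p 0.00706) and 0.42 (limma BH-adjusted p 0.00129) in ENZS, while ZNF532 of the same complex fell by 0.39 (limma BH-adjusted p 0.022). ZNF827 rose by 0.48 (limma BH-adjusted p 0.0305), ZNF644 was at -0.01 (limma BH-adjusted p 0.947), and ZNF462 is given above. ZNF451, a SUMO ligase that binds the androgen receptor, rose by 0.58 in ENZS (SE 0.15, limma BH-adjusted p 0.00122) and 0.64 in ENZR (SE 0.15, limma BH-adjusted p 0.000233), from 13.8 to 28.0 rescaled TPM in PRE-CX to 15.0 to 40.8 and 16.4 to 49.5.

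Of 8 KRAB members with known targets, 6 rose and 1 fell in ENZS (47.5% and 13.6% of all genes). In ENZR 5 rose and 1 fell (44.6% and 13.8% of all genes), also near the share of all members. ZNF91, which silences SVA elements, had 13.2 to 43.1 rescaled TPM in PRE-CX and 36.2 to 58.8 in ENZS and rose by 0.72 (SE 0.17, limma BH-adjusted p 0.00032), and by 0.52 in ENZR (limma BH-adjusted p 0.00639). ZNF10, the source of a widely used KRAB repressor domain, rose by 0.62 and 0.60, ZNF268 by 0.49 and 0.45, and ZNF445, which guards imprinted regions, by 0.55 and 0.60. ZNF274, which marks the ends of other zinc finger genes for methylation, rose by 0.63 in ENZS (SE 0.14, limma BH-adjusted p 0.000118), and its ENZR difference of 0.28 did not pass (limma BH-adjusted p 0.0642). ZNF202 rose by 0.25 in ENZS (limma BH-adjusted p 0.0482), which turned to -0.04 when centred. ZNF587, active against young transposable elements, was the 1 that fell, by 0.47 (limma BH-adjusted p 0.00151) and 0.30 (limma BH-adjusted p 0.0361). Across these role lists, the rises in ENZS that kept their call as deposited were those of ZNF638, ZNF263, ZNF219, ZNF703, ZNF462, ZNF10, ZNF91 and ZNF274, and no fall did. When centred, the falls of ZNF593, ZNF598, ZNF207, ZNF532 and ZNF587 kept their call, as did the rises of ZNF346, ZNF638, ZNF263, ZNF410, ZNF219, ZNF462, ZNF10, ZNF91, ZNF274 and ZNF445.

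The machinery that KRAB proteins recruit did not move as a block. Of 16 listed genes, none of them members, 5 rose and 5 fell in ENZS (47.5% and 13.6% of all genes) and 6 rose and 4 fell in ENZR (44.6% and 13.8% of all genes). TRIM28, the corepressor itself, had 214 to 373 rescaled TPM in PRE-CX and 217 to 320 in ENZS and fell by 0.30 (SE 0.12, limma BH-adjusted p 0.023), and its difference of -0.25 in ENZR did not pass (limma BH-adjusted p 0.0515). SETDB1 was at -0.15 (limma BH-adjusted p 0.159) in ENZS. CBX3 (HP1 gamma) fell by 0.72 (SE 0.12, limma BH-adjusted p 6.58e-07), DNMT1 by 0.71 (limma BH-adjusted p 1.56e-05), HDAC2 by 0.60 (limma BH-adjusted p 4.93e-05) and SUMO2 by 0.35 (limma BH-adjusted p 0.000194) in ENZS. MPHOSPH8 and TASOR, of the HUSH complex, rose by 0.79 (limma BH-adjusted p 0.000102) and 0.43 (limma BH-adjusted p 0.00936), CHD4 by 0.52 (limma BH-adjusted p 0.00176), ATF7IP by 0.48 (limma BH-adjusted p 0.0175) and CBX1 (HP1 beta) by 0.37 (limma BH-adjusted p 0.00381). When centred, the falls of TRIM28, CBX3, DNMT1, HDAC2 and SUMO2 remained called in ENZS, SETDB1 was called lower as well, and of the rises only that of MPHOSPH8 was (limma BH-adjusted p 0.002). As deposited, CBX3, DNMT1 and MPHOSPH8 were called in ENZS.

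Zinc finger genes of other names with a mean of 10 or more were also above 0 at the median in ENZS against PRE-CX. Of 19 ZBTB genes 12 rose and 0 fell (median 0.45), of 7 ZSCAN genes 5 rose (median 0.58), of 2 ZKSCAN genes both rose (median 0.80), of 8 ZFP genes 6 rose (median 0.39) and of 6 KLF genes 3 rose and 1 fell (median 0.24). The 473 numbered zinc finger genes that passed the filter (members included) had a median of 0.35, with 280 higher and 35 lower. Of all genes tested 47.5% rose and 13.6% fell in ENZS, with a median of 0.29. For all genes at a mean of 10 or more these were 46.6%, 16.6% and 0.24. The families of other names are given on the rescaled levels alone.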

How the data were processed

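RNA-seq was performed on 54 LNCaP xenograft tumors in 5 groups taken from the labels, each tumor from its own mouse. The authors deposited 1 table of TPM by human gene symbol, from stranded poly(A) libraries (about 40 M read pairs each per the labels). According to the study and the submitters' processing notes, reads were processed with FastQC 0.11.9, Trim Galore 0.6.5, STAR 2.7.2b on a combined human GRCh38 and mouse GRCm38 reference, and RSEM 1.3.3. Because RSEM divides reads between near-identical copies, values of paralogous zinc finger genes are uncertain singly. TPM hold no read depth, so the precision rests on the spread between tumors. No 2 tumors had identical columns (highest correlation 0.994).

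Each tumor was rescaled to 1000000 over human genes, and log2(value + 1) was used, which understates changes of genes near 1 TPM. Genes at 1 or more in at least 8 tumors were tested with limma 3.58.1 (R 4.3.3, trend option) in 1 fit of 5 group means, with Benjamini-Hochberg adjustment over all 17593 genes within each of 7 comparisons. Called means an adjusted p under 0.05. The script was tested on simulated data. Tables were made in Python 3.11.15 with pandas 2.3.3.

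Named were the 3 members with the highest mean, the 6 largest rises and falls among called members in ENZS and ENZR against PRE-CX, the 3 largest in the other comparisons, members of the role lists, called genes of the KRAB machinery and the genes at the threshold. The members and lists were chosen with earlier results of these data known. Alternatives were TPM as deposited, centring on the tumor median, rescaling without mitochondrial and the 100 most abundant genes, a pseudocount of 0.1, no filter, a filter at 5 TPM, no trend, leaving out tumors of low human total and, for the medians, other thresholds for membership. The C2H2 pattern was the PROSITE form and the KRAB pattern a short consensus of the A box. Promoters, positions and gene types are from RefSeq (GRCh38.p14); GENCODE v44 transcripts (lifted to GRCh37, used for sequence only) gave the reading frames.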

Additional observations from a re-analysis of the deposited data

Results flagged for a closer look

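Among the index and the 21 named genes with the largest changes or highest levels, 66 groups of 8 to 10 tumors were examined for a tumor far from the rest of its group, and 5 values stood apart; chance alone gives about 1 in 20 groups. ZNF735 was at 13.81 rescaled TPM in POST-CX mouse 91, where the other tumors of the group ran from 0 to 1.21. ZNF177 in the same tumor was at 16.14, with the others from 6.13 to 9.74. That tumor had a human share of 27.9% of the deposited TPM. ZNF735 was at 0.1067 in PRE-CX mouse 9, against 0 to 0.0363 in the other PRE-CX tumors, all near the lower end of the measured range. In CRPC, ZNF177 was at 2.443 in mouse 81, with the others from 6.83 to 10.8, and ZNF207 was at 134.9 in mouse 47, with the others from 164 to 197. No technical or biological reason for these values was tested.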

How the results depend on the processing

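No paired analysis was possible because no mouse number is shared between groups. The counts of called members depended on scaling. With TPM as deposited they went from 84 to 3 in POST-CX minus PRE-CX, from 42 to 5 in CRPC minus PRE-CX, from 165 to 63 in ENZS minus PRE-CX, from 148 to 30 in ENZR minus PRE-CX and from 116 to 3 in ENZS minus CRPC. Centring gave 51 in POST-CX minus PRE-CX and 46 in ENZS minus CRPC, and rescaling without mitochondrial and the 100 most abundant genes gave 70 in the latter (59 higher, 11 lower). Without the filter CRPC minus PRE-CX gave 25, and without the 4 tumors of low human total CRPC minus POST-CX gave 2, both lower. The median over members moved as deposited to -0.0173 in POST-CX minus PRE-CX, 0.0972 in ENZR minus PRE-CX, 0.125 in CRPC minus POST-CX and -0.2329 in ENZR minus ENZS, and by centring to 0.0464 in POST-CX minus PRE-CX, 0.0644 in ENZS minus PRE-CX, 0.0603 in ENZR minus PRE-CX and 0.0768 in ENZS minus CRPC. The cause was not tested. Leaving out POST-CX mouse 91 or 48, or ENZR mouse 87 or 103, alone (chosen after seeing the data) gave 74 to 92 called members in POST-CX minus PRE-CX and 146 to 149 in ENZR minus PRE-CX. Of the 42 named differences, 10 no longer passed as deposited and 1 (ZNF726) without the filter, and none changed direction under any alternative. Read depth is unknown for these TPM.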
